A study of Mus musculus with 21 samples.

Results

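The pluripotency factors described here are 10 mouse genes: Pou5f1, Sox2, Nanog, Esrrb, Zfp42, Tfcp2l1, Tbx3, Prdm14, Sall4 and Nr0b1. They were selected by gene symbol, with no threshold on their values, but the set was chosen with earlier results of these data known. Each symbol matched 1 row in both expression tables, so they made up 10 of the 27968 genes listed for sorted cells and 10 of the 19321 genes with values for the coculture. Expression was given as FPKM, a fragment count scaled to transcript length and to the mapped total of the library.

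RNA-seq covered 21 libraries of 7 groups, 3 libraries in each. Mouse embryonic stem cells (mESC, strain 129/ola) were kept on inactivated embryonic fibroblasts with serum and leukemia inhibitory factor (LIF). From the same strain background, hematopoietic-like colonies were raised in a 3D self-assembling peptide and then cultured on OP9, a mouse bone marrow stromal line treated with mitomycin C, with stem cell factor, IL-3 and Flt3 ligand. On day 5, the lineage-negative Sca-1+ c-kit+ (LSK) cells were sorted by CD201, the surface receptor encoded by Procr, into D5-LSKCD201- and D5-LSKCD201+. The reference populations were FL-LSKCD201+ from E12.5 fetal liver and BM-LSKCD201+ from adult bone marrow, both of C57BL/6 mice. Total cells on day 5 of 3D+OP9 and of 3D+0.1% gelatin, in which a gelatin coat replaced the stroma, made up the remaining groups and also carried the 129/ola background. By the labels the mESC and the day 5 cells shared their strain, although the study's methods name stem cells of both 129/ola and C57BL/6 origin. For FL and BM cells the effects of strain and of origin cannot be told apart. The study calls the sorted-cell libraries biological replicates. For the coculture the labels only number the libraries, so its p-values may measure technical spread.

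Pluripotent cells are held together by a small set of transcription factors that bind each other's genes. Pou5f1 (Oct4), Sox2 and Nanog form the core of this circuit, and Sall4 is a zinc finger partner of Oct4. Esrrb, Tfcp2l1, Tbx3, Prdm14, Zfp42 (Rex1) and Nr0b1 (Dax1) belong to the naive state of the preimplantation epiblast, which in culture is sustained by LIF and STAT3 and is lost as cells pass to the primed state of the postimplantation epiblast. The core factors persist through that passage, and several of them are also used by primordial germ cells.

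Because Oct4 and Sox2 bind next to each other at many network genes, the DNA upstream of the members was searched for their motifs. RefSeq promoter windows (GRCm38.p6) were found for 7 of the 10 genes. Tbx3, Prdm14 and Sall4 had no entry in the table. The bases before the start were read on both strands for the octamer core ATGCAAA, the full octamer ATGCAAAT, the Sox motif CATTGT, the Esrrb motif TCAAGGTCA, the Klf motif GGGTGTGG, the GC box GGGCGG and the TATA box TATAAA. The windows shown are those of the core trio and of Zfp42, the gene with the most kinds of motif, each read 5′ to 3′ on the gene's strand with motif matches in capitals. They stand at chr17:35505782-35506017 (+) for Pou5f1, chr3:34649745-34649994 (+) for Sox2, chr6:122707239-122707488 (+) for Nanog and chr8:43307010-43307259 (-) for Zfp42. In the windows shown, bases inside the gene as GENCODE M21 draws it were left off. The second windows of Pou5f1 and Esrrb, not shown, lie inside the gene and were kept whole.
Pou5f1: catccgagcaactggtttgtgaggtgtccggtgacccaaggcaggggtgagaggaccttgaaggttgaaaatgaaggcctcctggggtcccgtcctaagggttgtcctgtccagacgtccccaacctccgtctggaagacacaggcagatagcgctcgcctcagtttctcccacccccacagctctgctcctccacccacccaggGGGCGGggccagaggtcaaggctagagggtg
Sox2: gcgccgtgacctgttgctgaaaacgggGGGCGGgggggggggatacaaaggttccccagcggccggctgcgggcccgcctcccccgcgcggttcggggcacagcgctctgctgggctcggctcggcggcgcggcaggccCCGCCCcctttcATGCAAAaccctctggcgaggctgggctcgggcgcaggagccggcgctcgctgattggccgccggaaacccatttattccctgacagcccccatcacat
Nanog: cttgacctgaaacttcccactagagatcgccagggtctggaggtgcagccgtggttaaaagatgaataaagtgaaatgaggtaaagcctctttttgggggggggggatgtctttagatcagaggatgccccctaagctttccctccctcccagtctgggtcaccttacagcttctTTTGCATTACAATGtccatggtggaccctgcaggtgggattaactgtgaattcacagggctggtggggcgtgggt
Zfp42: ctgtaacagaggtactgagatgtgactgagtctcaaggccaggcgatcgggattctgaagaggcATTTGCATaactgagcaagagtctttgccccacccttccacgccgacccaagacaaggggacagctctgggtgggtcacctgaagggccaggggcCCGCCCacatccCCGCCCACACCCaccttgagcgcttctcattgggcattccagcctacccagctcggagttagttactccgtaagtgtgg

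In the Nanog window the capitals mark an octamer core and a Sox motif on the reverse strand, separated by 1 base, at -75 to -62 from the RefSeq start. This joined motif stood in 2 of 32851 promoter windows (0.00609%), both of them overlapping windows of Nanog. In Zfp42 the capitals mark the full octamer at -186 to -179, found in 1.6% of all windows, and 2 GC boxes at -91 to -86 and -79 to -74. The latter overlaps a Klf motif at -75 to -68, a motif held by 3.2% of windows. Sox2 had an octamer core at -99 to -93, found in 4.12% of windows, and 2 GC boxes, which 32.7% of windows hold. Pou5f1 had 1 GC box at -45 to -40 in the window shown. Of the windows not printed, a second Pou5f1 start carried a Sox motif (10.7% of windows), and Tfcp2l1 and Nr0b1 each carried a TATA box (12.4%). Neither Esrrb window had a match, and none of the 7 genes searched had the Esrrb motif, which stood in 0.387% of windows. A match is a description of letters and not of binding.

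Several libraries stood apart. D5-LSKCD201- replicate 2 was well below the other libraries of its group for Pou5f1, Sox2, Esrrb, Tbx3 and Sall4, and 3D+OP9 replicate 3 the highest of its group for Pou5f1, Sox2, Esrrb, Zfp42, Prdm14, Sall4 and Nr0b1. In BM-LSKCD201+ replicate 1, 8 of the 10 members were listed at exactly 0. The FPKM total of a library ranged from 508622 to 620332 for sorted cells and from 483263 to 508307 for the coculture. The number of reads is unknown, so the precision of a single value is not given. Procr followed the CD201 labels, at between 57.9 and 61.9 FPKM in D5-LSKCD201+ and between 3.02 and 3.82 in D5-LSKCD201-. Ptprc, which encodes the leukocyte antigen CD45 and was not used for the sort, stayed at or under 0.935 FPKM in every library of both D5 populations, whereas FL-LSKCD201+ had 38.4 or more.

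In mESC the 10 factors covered a wide range of levels. Zfp42, a zinc finger protein used as a marker of undifferentiated cells (ENSMUSG00000051176, chr8:43295063-43306980), was highest at 611, 607 and 599 FPKM. Pou5f1, the POU factor at the head of the circuit (ENSMUSG00000024406, chr17:35506018-35510772), followed at 424, 429 and 426 FPKM. Both ranked between 113 and 191 among all genes of their library. Nr0b1, an X-linked orphan nuclear receptor (ENSMUSG00000025056, chrX:86191764-86195947), read 169, 161 and 160 FPKM. Sall4 (ENSMUSG00000027547, chr2:168748332-168767943) read 120, 121 and 123 FPKM. The homeodomain factor Nanog (ENSMUSG00000012396, chr6:122707489-122714633) stood at 75.0, 75.7 and 71.0 FPKM, and the HMG box factor Sox2 (ENSMUSG00000074637, chr3:34650405-34652461) at 75.3, 73.6 and 54.7. These 2 overlapped, with replicate 3 of Sox2 lowest.

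The other 4 factors were lower still. Esrrb, an orphan nuclear receptor (ENSMUSG00000021255, chr12:86361117-86521628), read 9.57, 10.6 and 11.5 FPKM. Tbx3, a T-box factor (ENSMUSG00000018604, chr5:119670669-119684724), read 5.41, 7.32 and 6.03. Prdm14, a PR domain protein of the naive state and of germ cells (ENSMUSG00000042414, chr1:13113457-13127163), read 5.23, 5.67 and 6.29. Tfcp2l1, a grainyhead-like factor downstream of STAT3 (ENSMUSG00000026380, chr1:118627945-118685168), read 3.03, 3.42 and 2.85. Tbx3 and Prdm14 overlapped each other and lay below Esrrb in every library. All positions are those of GRCm38. Sox2 lies inside the noncoding gene Sox2ot on the same strand, and antisense or neighbouring transcripts overlap Pou5f1, Tbx3 and Sall4, and whether reads were counted by strand is not given in the sources used here. Each of these partners was listed under 0.5 FPKM on average in mESC and in both D5 populations. For Sox2, Tbx3 and Sall4 the position listed with the sorted-cell values was wider than the gene and took in the partner. Whether reads of the partner entered the values of these 3 factors was not tested. Tfcp2l1 holds 3 small noncoding genes or pseudogenes, for which the sorted-cell table gave no values.

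**Figure D1:**
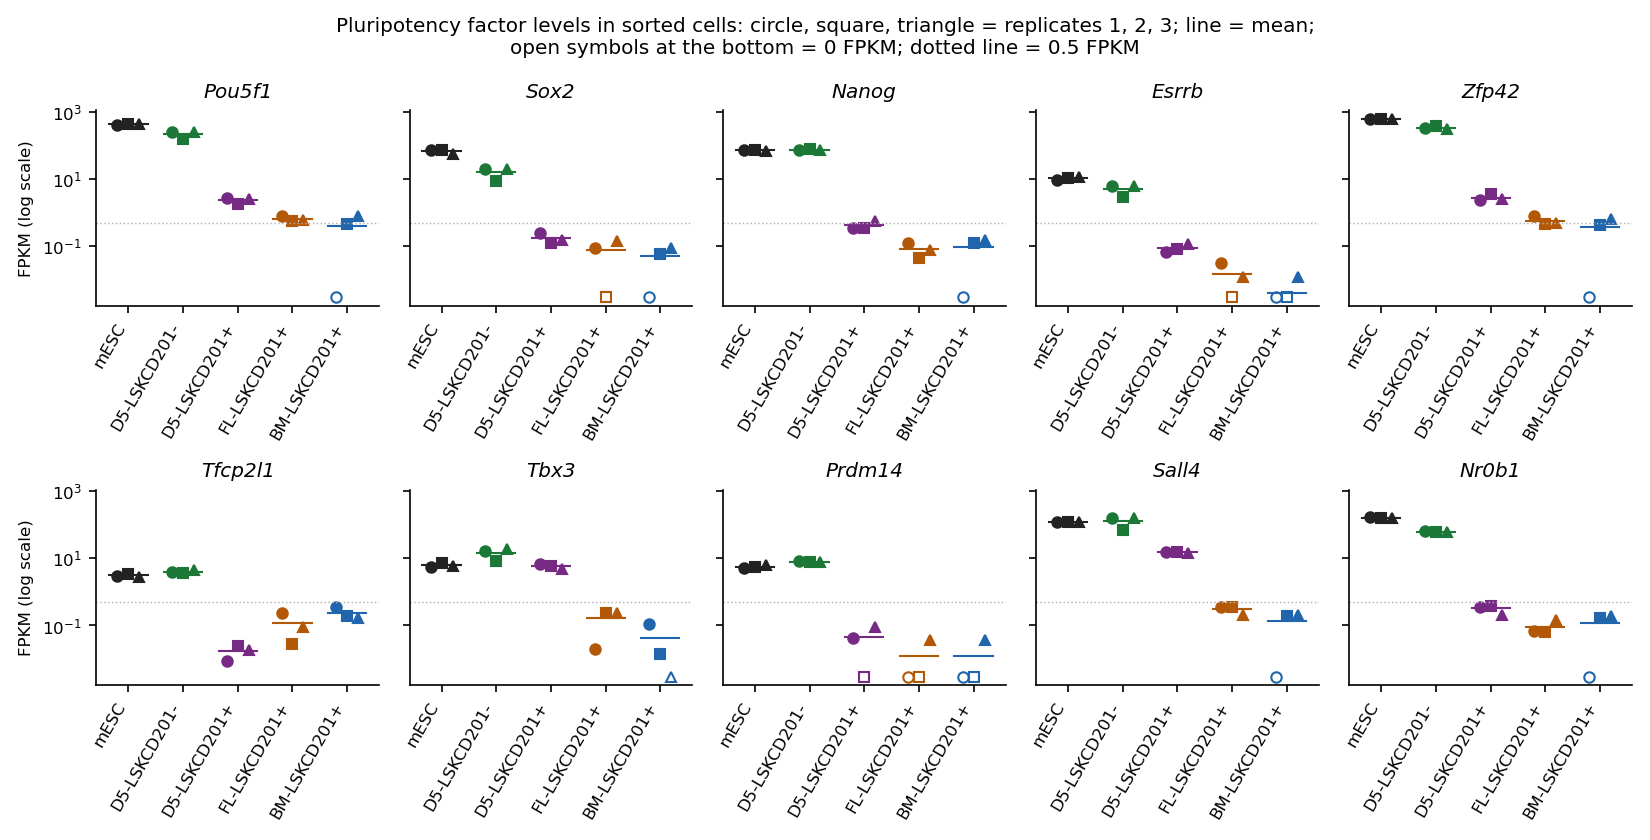
FPKM of each factor (log axis) in the 15 sorted-cell libraries, by group, with 1 symbol per replicate and a line at the mean. Open symbols at the bottom stand for 0 FPKM and the dotted line for 0.5 FPKM. All 10 factors lie above the dotted line in mESC and D5-LSKCD201-, and in D5-LSKCD201+ only Tbx3, Sall4, Pou5f1 and Zfp42 lie above the dotted line in every library.

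D5-LSKCD201- against mESC asked how far the network had been dismantled in LSK cells that lacked CD201. The factors did not move together. Of the 10, Sox2, Nr0b1 and Esrrb fell, Tbx3 rose, and the other 6 were not called. A gene was called when its adjusted p was under 0.05 and its log2 fold change was 1 or more in either direction, from limma on log2(FPKM + 1) over 13596 genes, with Benjamini-Hochberg adjustment. Among all genes tested, 3.48% were called lower and 10.9% higher, so the rise of Tbx3 alone is near the share of all genes. Values did not overlap between the groups for 8 of the 10, against 64.4% of all genes tested.

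Sox2 changed most. It read 20.4, 8.74 and 19.9 FPKM in the 3 D5-LSKCD201- libraries, all below the lowest mESC library, with replicate 2 far below the other 2. The fitted change was -2.06 on the log2 scale (SE 0.30, adjusted p 0.00101). Nr0b1, which encodes a protein that binds Oct4, was even across replicates at 64.2, 60.3 and 60.1 FPKM and fell by 1.40 on the log2 scale (SE 0.05, adjusted p 1.71e-06). In every library it stood at 36.8% to 39.3% of the mESC mean. Esrrb read 6.01, 2.84 and 6.01 FPKM, again with replicate 2 lowest. The change of Esrrb, -1.01 (SE 0.24, adjusted p 0.00891), sat at the fold threshold and was -0.72 without that replicate (adjusted p 0.000138).

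Pou5f1 and Zfp42 were lower in every library but missed the fold threshold. Pou5f1 read 249, 155 and 258 FPKM, so that the lowest library held 36.3% and the highest 60.6% of the mESC mean. Its change was -0.98 (SE 0.18, adjusted p 0.00302), and it passed the threshold when D5-LSKCD201- replicate 1 or replicate 3 was left out (-1.09 and -1.11). Zfp42 read 325, 374 and 316 FPKM, with replicate 2 the highest this time, and its change was -0.84 (SE 0.07, adjusted p 6.49e-05). Both still ranked within the first 700 genes of each D5-LSKCD201- library.

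Nanog, Sall4 and Tfcp2l1 differed little between the groups. Nanog was at 72.7, 78.0 and 71.6 FPKM in D5-LSKCD201-, overlapping mESC, and the 95% interval of its log2 difference ran from -0.14 to 0.14 (adjusted p 0.973). Sall4 was split, with 159, 70.6 and 157 FPKM, and its interval was wide, from -0.69 to 0.67. Replicates 1 and 3 lay above all mESC libraries and replicate 2 below them. Leaving out replicate 2 gave Sall4 a difference of 0.38 (adjusted p 4.05e-05), under the fold threshold. Tfcp2l1 read 3.91, 3.61 and 4.46 FPKM, above all mESC libraries by a small margin (0.28, SE 0.11, adjusted p 0.0643).

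Tbx3 and Prdm14 were higher in D5-LSKCD201-. Tbx3 read 17.0, 8.20 and 19.4 FPKM, each above the highest mESC library at 7.32, and rose by 1.06 on the log2 scale (SE 0.29, adjusted p 0.0170). This call was lost when any library except D5-LSKCD201- replicate 2 or mESC replicate 2 was left out, with values from 0.83 to 1.04. Prdm14 varied little, at 8.30, 7.65 and 7.99 FPKM, and higher by 0.42 (SE 0.10, adjusted p 0.00817), below the fold threshold.

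**Figure D2:**
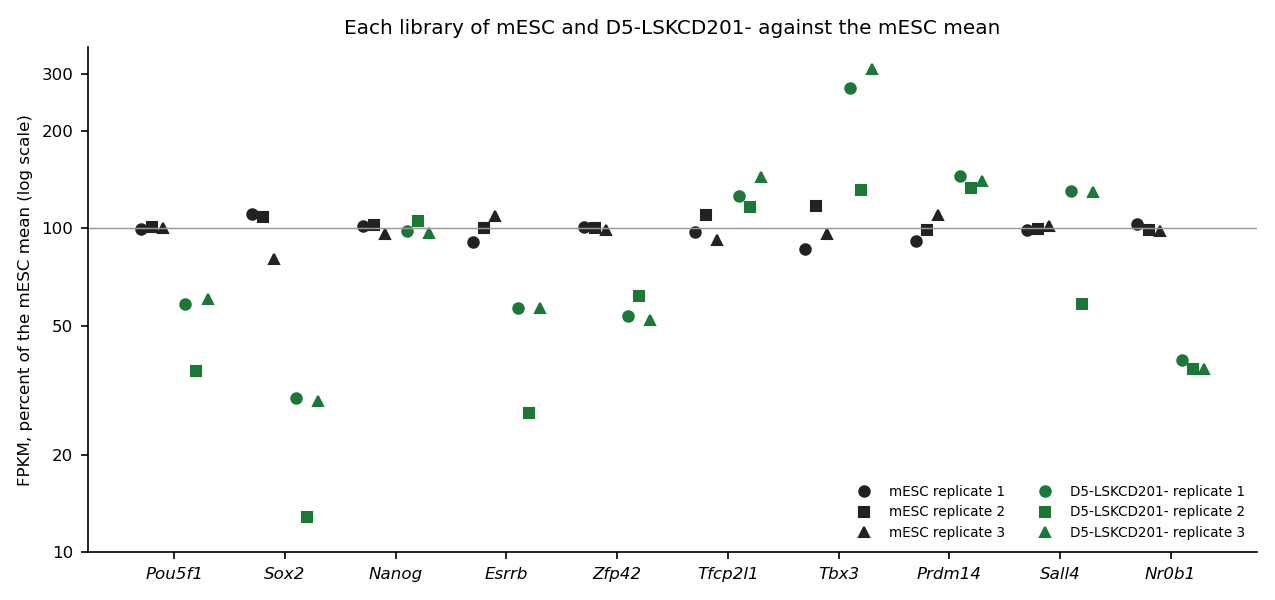
Each library of mESC (black) and D5-LSKCD201- (green) as a percent of the mESC mean of that factor (log axis), with circle, square and triangle for replicates 1, 2 and 3. D5-LSKCD201- replicate 2 lies well below the rest of its group for Pou5f1, Sox2, Esrrb, Tbx3 and Sall4, but not for Nanog, Zfp42 or Nr0b1, whose replicates lie close together.

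The proportions of the core factors were then compared within libraries. Within a library, log2(FPKM + 1) of Nanog minus that of Pou5f1 was -2.48, -2.49 and -2.57 in mESC and -1.76, -0.98 and -1.84 in D5-LSKCD201-. The groups did not overlap, and the difference was 0.99. For Nanog minus Sox2 the values were -0.01, 0.04 and 0.37 in mESC and 1.79, 3.02 and 1.80 in D5-LSKCD201-. That difference was 2.07. Both differences follow from the changes given above for pairs chosen with those changes known, and the exact two-sided permutation p of 0.1, the smallest that 3 against 3 libraries allows, adds no support to them. Without D5-LSKCD201- replicate 2 the 2 differences were 0.71 and 1.66. In bulk libraries such as these, fewer cells holding a transcript and less transcript per cell cannot be told apart.

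Other genes of the network were read from lists that exclude the 10 members. Of 25 partners and shared targets of the core, 12 fell and 1 rose, with a median log2 fold change of -0.99 against 0.05 over all genes. The largest falls were in Phc1, a Polycomb protein (-1.88), and Dppa2, a chromatin factor (-1.77), while Sox15, a relative of Sox2, rose by 1.94. Of 15 naive state genes, 3 fell and 1 rose, with a median of -0.78. The homeobox gene Gbx2 fell from 80.9 to 3.72 FPKM on average (-4.13), and Zfp57, a keeper of imprints, fell by 1.94. Dppa3, a maternal factor found in naive and germ cells, rose from between 6.64 and 8.35 FPKM to between 67.6 and 72.4, a log2 fold change of 3.10 (adjusted p 6.64e-07).

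Genes of the primed epiblast and primitive streak moved the other way in part, with 8 of 15 tested higher and 2 lower (median 2.89). Cer1 and Fgf8, secreted proteins of the early embryo, rose most (6.75 and 6.22), and Fgf5, a marker of primed cells named after its values were seen, rose from between 0.277 and 0.676 FPKM to between 76.6 and 87.6. Of the 8, 4 averaged under 0.5 FPKM in mESC and entered the test only through D5-LSKCD201-. The falls in this list were in Dnmt3a (-2.02) and Pou3f1 (-1.64). Of the 9 germ cell genes, 4 rose and none fell: Dppa3, Kit, Nanos3 and Dazl, the last 2 chosen after their values were seen. Dppa3 is also in the naive list, and Kit was a marker of the sort.

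Signalling genes were read in the same way. In the LIF and STAT3 list, Socs3 and Pim1, direct STAT3 targets, fell by 2.88 and 1.36 on the log2 scale, and the other 9 of 11 were not called. In the FGF and ERK list, 4 of 14 fell, led by Etv4 (-1.83) and Spry4 (-1.81), and none rose. Of 9 genes of the GSK3, beta-catenin and TCF3 axis, Tcf7l2 alone passed, with 1.94, a share near the 10.9% of all genes, and 2 genes passed without D5-LSKCD201- replicate 2.

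Markers of other cells moved in the same comparison. All 8 endoderm genes tested rose, led by Sox17 (5.96) and Dab2 (4.41), as did 11 of 13 stromal genes, led by Col1a2 (2.86) and Col3a1 (2.35). Summed stromal FPKM was between 10.6 and 12.1 in mESC and, in D5-LSKCD201-, 86.7, 51.3 and 85.6, with replicate 2 again lowest. Lum was under 0.5 FPKM throughout, the only 1 of the 15 listed stromal genes to be so in every D5-LSKCD201- library. Of the genes of the sort markers, Ly6a (Sca-1) rose by 3.70 and Kit by 1.93, and Procr, for which this fraction was negative, was not called (0.39). Cd34, a progenitor marker that was not sorted on, rose by 2.82. Of the hematopoietic list 6 of 9 rose, with Runx1 (2.23) and Fli1 (2.06) ahead. Of the endothelial list 6 of 8 rose, led by Kdr (2.74) and Emcn (2.36). Of 4 neural genes tested, Pax6 fell (-2.87), and none of 5 SSEA-1 or epithelial sort genes was called. Of the genes counted as higher, 5 endoderm, 4 stromal, 5 hematopoietic and 4 endothelial genes averaged under 0.5 FPKM in mESC, entered the test only through D5-LSKCD201- and had to lie above, so these counts describe levels and are no support. The part of other cells in the factors' levels was not tested.

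D5-LSKCD201+ cells, by contrast, had low levels of all 10 factors except Tbx3 and Sall4. Against mESC, 9 of the 10 factors were lower, where 18.1% of all genes were, and against D5-LSKCD201- all 10 were, where 13.9% were. Most of the 10 passed the filter on low values through the higher group alone, so these counts describe the levels and add no support to them. Tbx3 was the exception. It read 6.61, 5.75 and 4.88 FPKM in D5-LSKCD201+, overlapping mESC, with a difference of -0.10 (95% interval -0.38 to 0.18, adjusted p 0.444). Against D5-LSKCD201- it was lower by 1.16 (SE 0.29, adjusted p 0.00973), and the call was lost without D5-LSKCD201- replicate 3 (-0.94) and with no filter on low values (adjusted p 0.0548).

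Sall4 was at an intermediate level. Its values of 15.5, 16.1 and 14.4 FPKM did not overlap with any other group, and they amounted to 12.6% of the mESC mean and 11.9% of the D5-LSKCD201- mean. On the log2 scale it changed by -2.91 against mESC (SE 0.05, adjusted p 7.37e-11) and -2.90 against D5-LSKCD201- (SE 0.30, adjusted p 0.000105). For Tbx3 the share of the D5-LSKCD201- mean was 38.7%, for Pou5f1 1.06% and for Zfp42 0.834%. The other 6 factors averaged under 0.5 FPKM in D5-LSKCD201+, too low for a share to be given.

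Beside Tbx3 and Sall4, Pou5f1 and Zfp42 were the only factors above 0.5 FPKM in all D5-LSKCD201+ libraries. Pou5f1 read 2.67, 1.77 and 2.58 FPKM, and Zfp42 read 2.34, 3.59 and 2.52. The remaining 6 were low: Nanog read 0.357, 0.340 and 0.578 FPKM, Nr0b1 0.366, 0.386 and 0.212, and Sox2 0.240, 0.124 and 0.153. Esrrb stayed at or under 0.115 FPKM, Prdm14 at or under 0.0905 and Tfcp2l1 at or under 0.0251. Prdm14 was listed at 0 in replicate 2. Of these 6, Nanog passed 0.5 FPKM only in replicate 3. Summed stromal markers in D5-LSKCD201+ were between 119 and 123 FPKM, with Lum at 1.57 on average. Endothelial markers summed to between 1288 and 1301, against 57.5 to 59.1 in D5-LSKCD201-. Hematopoietic markers summed to between 165.2 and 170.4 FPKM, against 27.63 to 36.11 in D5-LSKCD201-, with 6 of 9 tested higher and 3 lower. Among all 13691 genes tested, 1475 were called higher and 1904 lower. The hematopoietic genes did not move one way: Fli1 averaged 55.9 FPKM against 3.81 in D5-LSKCD201-, and Runx1 1.80 against 5.39. Germ cell markers summed to between 46.02 and 51.58 FPKM, against 176.2 to 184.2, and 8 of 9 were lower. Of those 8, 6 averaged under 0.5 FPKM in D5-LSKCD201+. Summed endoderm markers were between 389.6 and 400.3 FPKM, against 200.6 to 236.8 in D5-LSKCD201- and 3.66 to 4.17 in mESC, with 2 of the 9 genes under 0.5 FPKM in every D5-LSKCD201+ library. Between the D5 populations the endoderm genes did not move one way: of 8 tested, Sox7 (also an endothelial gene) and Dab2 were higher in D5-LSKCD201+, and Foxa2, Apoa1 and Ttr were lower. Whether cells of any of these kinds carried Tbx3 or Sall4 was not tested.

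Other genes of the network were lower as well, though not all of them were near 0. Against mESC, D5-LSKCD201+ had 13 of 15 naive state genes lower, 1 higher and 1 not called, and of 25 core partners and shared targets 23 were lower and 2 were not called. Among those lower, Klf2, a Klf factor of the naive state, averaged 52.3 FPKM against 142.9 in mESC, Zfp57 26.1 against 161.7 and Mycn, a Myc family gene, 31.2 against 214.4, all 3 named after their values were seen. Against D5-LSKCD201-, 12 of the 15 naive state genes were lower and 1 was higher (median -3.22), with Klf2 and Zfp57 not called (adjusted p 0.362 and 0.0774). Also lower were 21 of the 25 core partners (median -3.95) and 12 of 14 primed genes (median -3.24), against a median of -0.12 over all genes. In each of these 3 lists, 5 of the genes counted as lower averaged under 0.5 FPKM in D5-LSKCD201+.

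In the FL and BM populations every factor was near the bottom of the scale. All 10 were lower than mESC in FL-LSKCD201+ (18.1% of all genes were) and in BM-LSKCD201+ (22.4% of all genes were), again as a description, since no factor reached 1 FPKM in any FL or BM library. Pou5f1 read 0.766, 0.570 and 0.619 FPKM in FL and 0, 0.456 and 0.766 in BM. Zfp42 read 0.813, 0.449 and 0.479 in FL and 0, 0.433 and 0.651 in BM. For both genes the FL and BM values overlapped. Sall4 read 0.35, 0.360 and 0.212 FPKM in FL and 0, 0.192 and 0.212 in BM, so that the lowest FL and the highest BM value differ only beyond the third digit.

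Tfcp2l1 was low in all 3 CD201+ populations. It was listed at 0.365, 0.186 and 0.164 FPKM in BM, 0.228, 0.0271 and 0.0899 in FL and 0.00883, 0.0251 and 0.0191 in D5-LSKCD201+, all of them under the 0.5 FPKM below which values are not resolved from 0, so no order is read from them. In BM-LSKCD201+ replicate 1, where 8 factors were at 0, Tfcp2l1 and Tbx3 were the 2 with a value. That library also listed 67 of a wider set of 94 mESC-high genes at 0, against 15 and 12 in the other BM libraries and 8 to 20 in FL. Between D5-LSKCD201+ and either FL or BM, Tfcp2l1 was under the filter and was not tested.

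Against the reference populations, D5-LSKCD201+ had higher levels of 4 factors, Tbx3, Sall4, Zfp42 and Pou5f1. These were the 4 that passed the filter, and all were higher than FL-LSKCD201+ (15.1% of all genes tested were) and than BM-LSKCD201+ (17.5% were). Against BM-LSKCD201+ all 4, and against FL-LSKCD201+ Tbx3 and Sall4, passed only through D5-LSKCD201+ and had to lie above, so the counts are not support. Pou5f1 and Zfp42 averaged 0.652 and 0.580 FPKM in FL-LSKCD201+ and would have passed at that level. Against FL-LSKCD201+, Sall4 was higher by 3.64 on the log2 scale (SE 0.09) and Tbx3 by 2.54 (SE 0.13), given as a description for the reason above. For Zfp42 the difference was 1.27 (SE 0.15, adjusted p 0.000287). Pou5f1 stood at 1.01 (SE 0.13, adjusted p 0.000385) and fell under the fold threshold in 4 of the 6 fits that left out a library, with values from 0.93 to 0.99. The added 1 makes these differences smaller than the ratios of mean FPKM, which were 4.86 for Zfp42 and 3.59 for Pou5f1. For Sall4 and Tbx3 no ratio is given, since both averaged under 0.5 FPKM in FL-LSKCD201+. Against BM-LSKCD201+ the same 4 differences, again a description, were 3.85 for Sall4, 2.69 for Tbx3, 1.5 for Zfp42 and 1.27 for Pou5f1. Strain and origin cannot be told apart here.

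**Figure D3:**
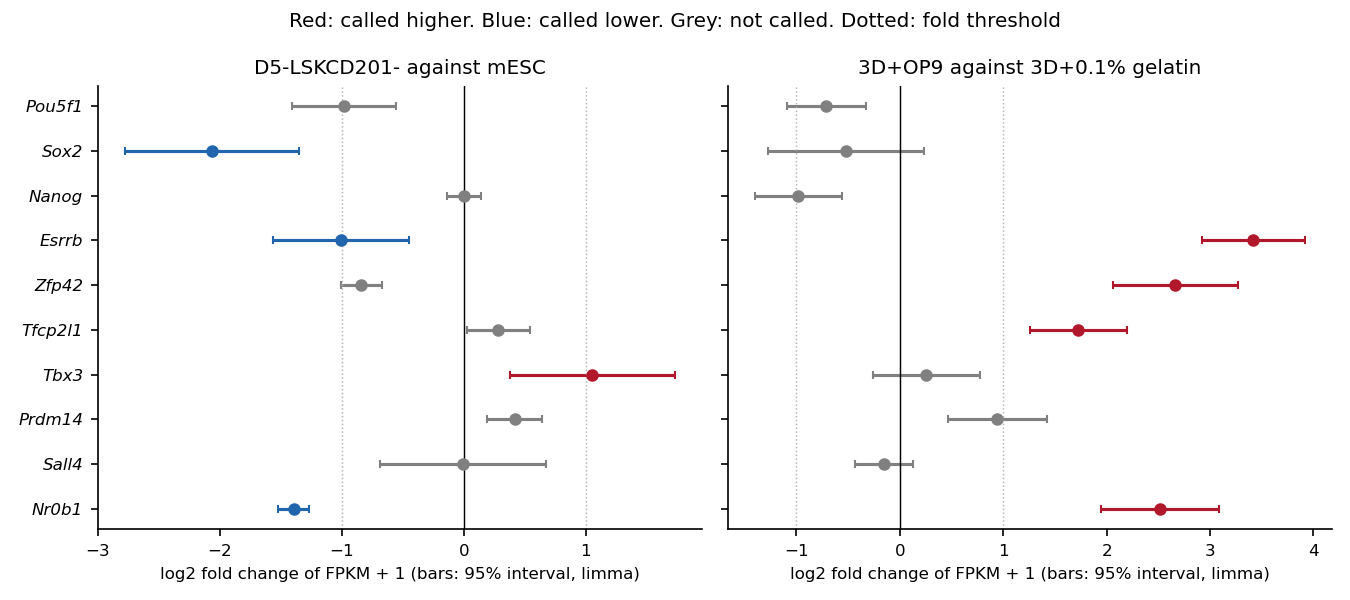
Log2 fold change of FPKM + 1 for each factor in D5-LSKCD201- against mESC (left) and in 3D+OP9 against 3D+0.1% gelatin (right), with 95% intervals from limma. Red marks factors called higher, blue those called lower and grey those not called, and the dotted lines stand at the fold threshold. On the right, Esrrb, Zfp42, Nr0b1 and Tfcp2l1 lie far above 0, while Nanog and Pou5f1 lie below it.

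In the coculture, 4 of the factors tied to the naive state rose and the core factors did not. Esrrb, Zfp42, Nr0b1 and Tfcp2l1 were higher in total cells from 3D+OP9 than from 3D+0.1% gelatin, and no factor was called lower. Of the 12958 genes tested, 273 (2.11%) were called higher and only 66 were called lower. For 7 of the 10 factors the values of the groups did not overlap, against 28.7% of all genes. Pou5f1 and Nanog were lower in each 3D+OP9 library than in any gelatin library but under the fold threshold.

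Esrrb differed most. It read 28.3, 24.9 and 46.1 FPKM in 3D+OP9 and 2.04, 2.01 and 2.19 in 3D+0.1% gelatin, with 3D+OP9 replicate 3 highest. The ratio of means was 15.9, and the log2 fold change 3.42 (SE 0.21, adjusted p 0.000623). Zfp42 read 31.0, 36.1 and 53.2 FPKM against 3.88, 4.91 and 7.71, a change of 2.67 (SE 0.26, adjusted p 0.00215).

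Nr0b1 followed the same pattern, with 8.91, 7.37 and 14.4 FPKM against 0.58, 1.29 and 0.89, and a change of 2.51 (SE 0.24, adjusted p 0.00215). Tfcp2l1 read 6.11, 5.78 and 3.30 FPKM against 0.77, 0.70 and 0.90, this time with 3D+OP9 replicate 3 lowest, and its change was 1.73 (SE 0.20, adjusted p 0.00392). All 4 kept their call in each of the 6 fits that left out a library. Without 3D+OP9 replicate 3 the changes were 3.16 for Esrrb, 2.45 for Zfp42, 2.26 for Nr0b1 and 1.96 for Tfcp2l1. Prdm14, also of the naive state, read 2.10, 1.70 and 3.22 FPKM against 1.08, 0.59 and 0.50. Its difference of 0.94 (SE 0.20, adjusted p 0.0364) was just under the fold threshold and reached 1.58 with a pseudocount of 0.1, while the adjusted p ran from 0.026 to 0.155 when a library was left out.

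Among the core genes most values were lower in 3D+OP9. Nanog read 76.7, 72.9 and 70.3 FPKM in 3D+OP9 and 171, 171 and 106 in 3D+0.1% gelatin, with gelatin replicate 3 nearest to the other group. The difference was -0.98 (SE 0.18, adjusted p 0.0197), and it passed the fold threshold without gelatin replicate 3 (-1.21, adjusted p 0.00537). Over the 6 fits that left out a library, the adjusted p of Nanog ran up to 0.0947. Pou5f1 read 334, 327 and 503 FPKM against 579, 640 and 653, a difference of -0.71 (SE 0.16, adjusted p 0.0446, or up to 0.172 with a library left out). Sox2 overlapped because of 1 library, with 38.6, 41.2 and 92.0 FPKM against 79.1, 91.8 and 60.7 (-0.52, SE 0.32, adjusted p 0.386). Without 3D+OP9 replicate 3, Sox2 was at -0.92 (adjusted p 0.0111).

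Tbx3 and Sall4 differed by less than the spread between libraries. Tbx3 read 20.6, 20.97 and 14.0 FPKM against 20.7, 13.6 and 12.2 (95% interval -0.26 to 0.77, adjusted p 0.545). Sall4 read 57.6, 51.1 and 68.9 FPKM against 70.9, 65.7 and 60.2 (95% interval -0.43 to 0.12, adjusted p 0.494).

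**Figure D4:**
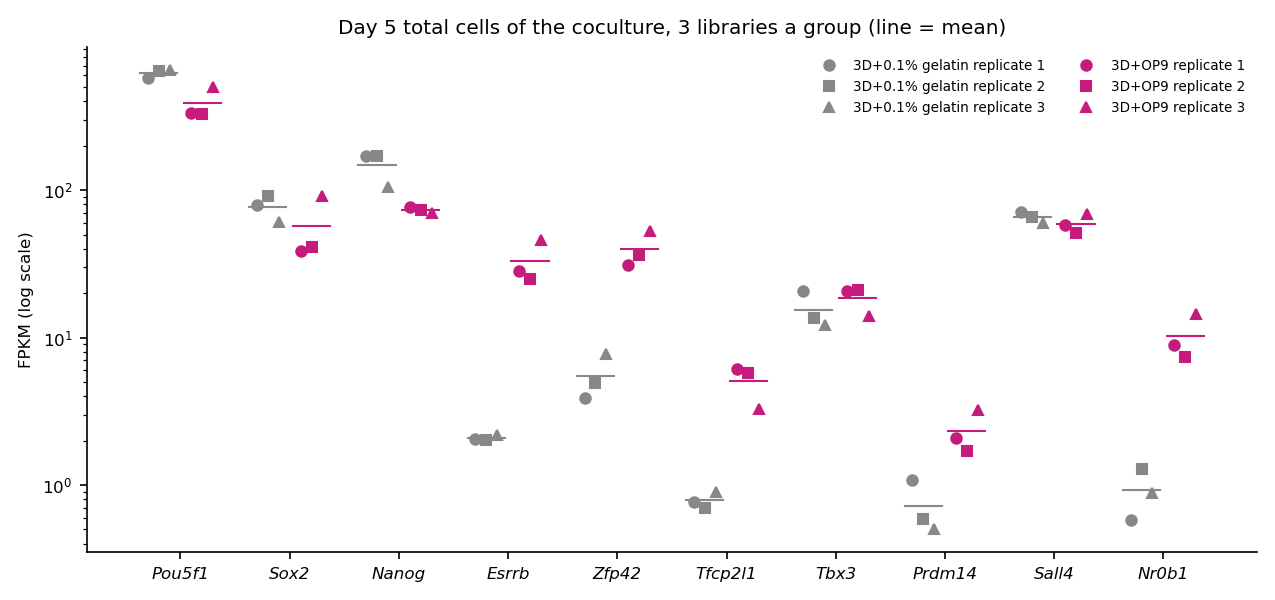
FPKM of each factor (log axis) in day 5 total cells of 3D+0.1% gelatin (grey) and 3D+OP9 (pink), with 1 symbol per library and a line at the mean. Esrrb, Zfp42, Tfcp2l1, Prdm14 and Nr0b1 lie higher in all 3D+OP9 libraries, and Pou5f1 and Nanog lower, while Sox2, Tbx3 and Sall4 overlap.

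Lists of other network genes were read in the same comparison. Of 15 naive state genes, 7 were higher in 3D+OP9 and none lower, with a median of 1.24 against 0.01 over all genes, and the count was the same without 3D+OP9 replicate 3. Of the 7, 2 averaged under 0.5 FPKM on gelatin and entered the test only through 3D+OP9. The largest changes were in Pecam1 (2.65), from 0.61 to 1.87 FPKM up to 9.63 to 16.7, and Fbxo15, an F-box protein of stem cells (2.39). Pecam1 also marks endothelium. Of 25 core partners and shared targets, Lefty2 (1.14), an inhibitor of Nodal, was the only gene called, and the median was -0.13. None of 16 primed epiblast and primitive streak genes was called by limma, with a median of -0.65. At an adjusted p under 0.05 alone Zic2, Sox3 and Fgf5 were lower (-0.58, -0.91 and -0.95), 3 genes named after their values were seen. Without 3D+OP9 replicate 3, 2 primed genes and 2 core partners were called lower. In the LIF and STAT3 list, Stat3 alone passed, at 31.8, 32.0 and 26.4 FPKM in 3D+OP9 against 11.8, 7.95 and 11.3 (1.46, adjusted p 0.00276). No gene of the FGF and ERK list (14 genes) or of the GSK3, beta-catenin and TCF3 axis (9 genes) was called.

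Total cells of the 2 cultures also differed in their other cell types. All 8 endothelial genes were higher in 3D+OP9, led by Cdh5 (3.49) and Tek (2.49), with summed levels of 81.7 to 102 FPKM against 15.4 to 24.6. Of 10 hematopoietic genes, 6 were higher, led by Tal1 (2.19) and Fli1 (2.10), as were Ly6a (1.99) and Kit (1.05), the genes of the Sca-1 and c-kit sort markers, and the progenitor marker Cd34 (2.26), but not Procr (0.20). Of 14 stromal genes 5 were higher, led by Postn (2.34) and Col1a2 (1.56), with summed levels of 104 to 121 FPKM against 60.7 to 72.9. Lum was under 0.5 FPKM in all 6 libraries, the only 1 of the 15 listed stromal genes to be so in either culture. Of the genes counted, 1 endothelial, 2 hematopoietic and 1 stromal gene averaged under 0.5 FPKM on gelatin and had to lie above. OP9 are mouse cells, so their transcripts carry the same gene names as those of the differentiating cells. Of the other lists, Sox7, which is also 1 of the 8 endothelial genes, rose among 8 endoderm genes (1.19), Kit among 7 germ cell genes (1.05) and Pecam1 among 6 SSEA-1 or epithelial sort genes, and no neural gene of 5 was called. Summed endoderm FPKM was 70.7, 79.6 and 43.3 in 3D+OP9 and 41.8, 33.4 and 101.1 on gelatin, with gelatin replicate 3 highest. Without 3D+OP9 replicate 3, the endoderm list had 2 genes higher, and the germ cell and SSEA-1 lists each had 1 higher and 1 lower. The part of these cells in the factors' differences was not tested.

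**Figure D5:**
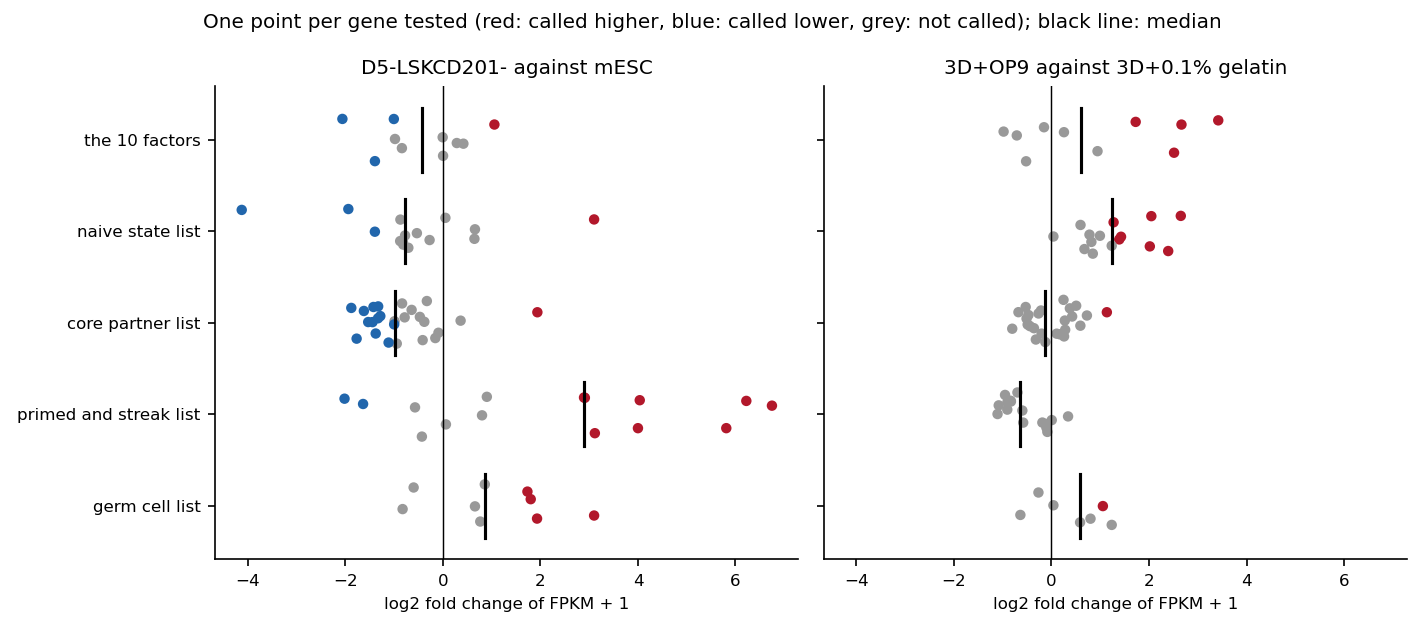
Log2 fold change of FPKM + 1 of each gene tested in the 10 factors and 4 lists, in D5-LSKCD201- against mESC (left) and 3D+OP9 against 3D+0.1% gelatin (right). Each point is a gene (red called higher, blue called lower, grey not called) and the black line is the median. On the right the naive state list has a median of 1.24 and the primed and streak list one of -0.65.

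Across the 15 sorted-cell libraries, the genes most like each factor were sought among 11338 genes that reached 5 FPKM in at least 1 library, by Pearson's r of log2(FPKM + 1). These values describe 5 groups of shared libraries more than 15 independent points. Pou5f1 and Zfp42 shared Utf1, a chromatin protein of stem cells, and Tdgf1, a Nodal coreceptor, among their closest 3 (r from 0.998 to 0.999), with Mreg for Pou5f1 and Slc7a3 for Zfp42 besides. Sox2 and Esrrb shared Fgf17 and the noncoding Platr10 (0.997), and the remaining neighbour was Amhr2 for Sox2 and Zfp985 for Esrrb. Nr0b1 was closest to Gm6871, Fgf4 and Triml1 (0.999). The neighbours of Nanog were Tdrd12, AU018091 and Ooep (0.998 to 0.999), and those of Prdm14 were Morc1, Gm10324 and Grhl3 (0.998 to 0.999). Tfcp2l1 had Syce1, Epcam and, as the only case of a member beside a member, Prdm14 (0.990). Sall4 had Mme, Rhox5 and Sulf1 (0.992 to 0.995). Tbx3 had the lowest values, with Prtg, Lama5 and Ckb at 0.987 to 0.991.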

How the data were processed

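The deposited values are FPKM per gene, which the authors gave for sorted cells and for the coculture in separate tables. Per the methods and the submitters' processing notes, reads were aligned with HISAT2 2.0.5, assembled with StringTie 1.3.3 and tested with Cuffdiff 1.3.0. Both GRCm38 and mm9 are listed as builds, and the methods describe no separate steps for the coculture. FPKM sums and read depth were not rescaled, so a gene at high level in 1 group can lower others.

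Values were analysed as log2(FPKM + 1), so the fold change of a gene near 0 is smaller than the ratio of its FPKM. In each comparison of 6 libraries, a gene entered when it averaged 0.5 FPKM or more, and was tested with limma 3.58.1 (trend, two-sided) in R 4.3.3, with Benjamini-Hochberg adjustment in each of 8 comparisons. Exact permutation tests used scipy 1.17.1. The code was tested on simulated data of 2 comparisons: of changes of 1.5 on the log2 scale, 92% were recovered in D5-LSKCD201- against mESC and 93% in the coculture. Changes were placed only in genes averaging 5 FPKM or more. Recovery in lower genes, or of changes near the fold threshold, was not tested.

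The 10 members, 6 pathway lists and 8 marker lists were chosen with earlier results of these data known. The genes named were all members, the 2 largest called changes per direction in each list in 2 comparisons, and 3 genes most like each member. Named outside this rule were the sort and identity genes Procr and Ptprc, Lum, and Klf2, Mycn, Fgf5, Nanos3, Dazl, Zic2, Sox3, Foxa2, Apoa1 and Ttr, chosen after their values were seen. Groups came from the labels, whose titles spell CD201 as CD021. Alternatives tried were quantile normalization, adding 0.1 in place of 1, dropping the filter or raising it to 1 FPKM, no trend, the replicate number as a block, 1 fit over 5 groups, the adjusted p alone and leaving out each library.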

Additional observations from a re-analysis of the deposited data

How the results depend on the processing

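Of 942 recomputed member values, 910 kept direction and side of the threshold, 15 lost a call, 12 gained one and 5 turned direction. In D5-LSKCD201- against mESC, 120 of 140 were kept, 9 lost a call, 6 gained one and 5 turned. In D5-LSKCD201+, FL and BM against mESC, where most factors were near 0 in 1 group, all 140 each were kept. In D5-LSKCD201- against mESC the number of factors called was 4. It was 2 with no filter (Tbx3 and Esrrb lost, adjusted p 0.0889 and 0.0547), 7 with the adjusted p alone, and 2 to 4 when a library was left out, 2 without mESC replicate 3. Nanog turned to -0.0078 under quantile normalization, and leaving out a library gave it -0.0343 to 0.0264. For Sall4 that range was -0.20 to 0.38. In the coculture, 4 factors were called, and 7 with the adjusted p alone. The counts of factors called in the other comparisons stayed within 1.5 times. Of the gene lists, the count called without D5-LSKCD201- replicate 2 went from 1 to 2 for the GSK3 axis, and without 3D+OP9 replicate 3 it went from 1 to 2 for the endoderm, germ cell and SSEA-1 lists, from 1 to 3 for core partners and from 0 to 2 for primed genes.

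Quantile normalization shifted the median of all genes from 0.05 to -0.09 in D5-LSKCD201- against mESC, from -0.12 to -0.02 in D5-LSKCD201+ against D5-LSKCD201-, from 0.10 to -0.06 in FL against mESC, from 0.23 to -0.04 in BM against mESC, from -0.16 to -0.06 in D5-LSKCD201+ against FL, and from -0.23 to -0.03 in D5-LSKCD201+ against BM. Tbx3 lost its call there at 0.94 in D5-LSKCD201- against mESC, and Pou5f1 gained one at -1.04. The causes of these changes were not tested.

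In the sorted-cell comparisons, same-numbered deviations from the group means correlated at -0.197 to 0.102. These correlations cannot show whether the libraries were paired, and the labels only number them. In the coculture the 3 correlations were all positive, at 0.072 to 0.291, and whether its libraries were paired is not known. With the replicate number as a block, the counts of factors called stayed at 4 in D5-LSKCD201- against mESC and 4 in the coculture, and no member's call changed in any comparison. With unknown read depth, values under 0.5 FPKM are not resolved from 0.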
